A study of Mus musculus with 2 samples.

Results

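Toll-like receptors are the proteins with which cells recognise conserved parts of microbes, and 10 of their genes were followed here through the cell types of mouse palatal gingiva: Tlr1, Tlr2, Tlr3, Tlr4, Tlr5, Tlr6, Tlr7, Tlr8, Tlr9 and Cd14. They were chosen by symbol, as 10 of the 32285 genes listed in both deposited matrices. Single-cell RNA sequencing had been carried out on the palatal gingiva of female C57Bl6/J mice aged 8 to 12 weeks, with the tissue of 4 mice pooled in each of 2 libraries. The mice of 1 library had received a CpG oligodeoxynucleotide (CpG ODN), unmethylated synthetic DNA that is a ligand of TLR9, and those of the other had received lipopolysaccharide (LPS) of Porphyromonas gingivalis, which the labels call a TLR2/4 ligand. Each ligand was given as 3 µl of a 1 µg/ml solution on the palate, kept in place for 1 h under an oral appliance, and the gingiva was taken at day 4. Both groups therefore carried a ligand and the appliance, and with 1 pooled library per ligand no test between ligands was possible. All intervals below are 95% intervals of counting error only, exact Poisson for a level, Clopper-Pearson for a share and conditional binomial for a ratio. They hold no spread between mice. Those of levels and ratios treat each UMI as an independent count and hold no spread between cells either.

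The family divides by place and ligand. TLR2, which pairs with TLR1 or TLR6 to bind bacterial lipoproteins, TLR4, which binds LPS together with MD-2 (Ly96), and TLR5, which binds flagellin, stand on the cell surface. TLR3 (double-stranded RNA), TLR7 and TLR8 (single-stranded RNA) and TLR9 (unmethylated CpG DNA) signal from endosomes, to which UNC93B1 carries them. CD14 has no signalling part of its own and hands LPS and other ligands to the receptors. Most of them signal through the adaptor MyD88, TLR3 through TRIF (Ticam1). Myeloid cells are the best known carriers of TLR2, TLR4 and CD14, and B cells and plasmacytoid dendritic cells of TLR9.

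Cells were kept when at least 800 genes were detected, which left 4888 of 6219 barcodes in the CpG ODN library and 1277 of 2016 in the LPS library, with median depths of 11077.5 and 22680 UMIs (unique molecular identifiers, 1 per captured mRNA molecule) and 70558059 and 37154575 UMIs in all. The libraries had 5 barcodes in common, 1 of them among the kept cells. Clustering placed 3751 and 980 cells in epithelial-like clusters, 84 and 65 in gland- or simple-epithelial-like clusters, 237 and 55 in a fibroblast-like, 49 and 24 in an endothelial-like, 65 and 16 in a mural-like, 283 and 69 in a B cell-like, 83 and 26 in a T cell-like and 34 and 13 in a myeloid-like cluster (CpG ODN first, here and below), named from listed marker genes. Small Schwann-like and red cell-like clusters with 24 and 11 and with 29 and 8 cells are left aside below. A cluster led by Ighg2b and Jchain with 238 and 4 cells met 7 of 9 B cell markers and stayed unnamed because genes of another class led it. Median depth differed between these classes, from 2149 and 3157 UMIs in B cell-like cells to 13179 and 27217 in epithelial-like cells, so levels are given as CPM, the UMIs of a gene per 1000000 UMIs of the class, and a count of 0 as the level that 3 counts would give.

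The Toll-like receptor genes were sparse. The 9 genes together had 900 UMIs among the 107712634 UMIs of the kept cells: 258 of Tlr2, 237 of Tlr4, 159 of Tlr5, 129 of Tlr3, 54 of Tlr1, 35 of Tlr7, 20 of Tlr6, 6 of Tlr9 and 2 of Tlr8, beside 461 of Cd14. Over the 8 named classes and both libraries, 87 of the 160 gene, class and library values were at 0 and 42 stood above 3 UMIs. The levels of Tlr6, Tlr8 and Tlr9 are therefore given as counts, and the other 7 genes reached the 30 UMIs set for a comparison of classes.

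**Figure D1:**
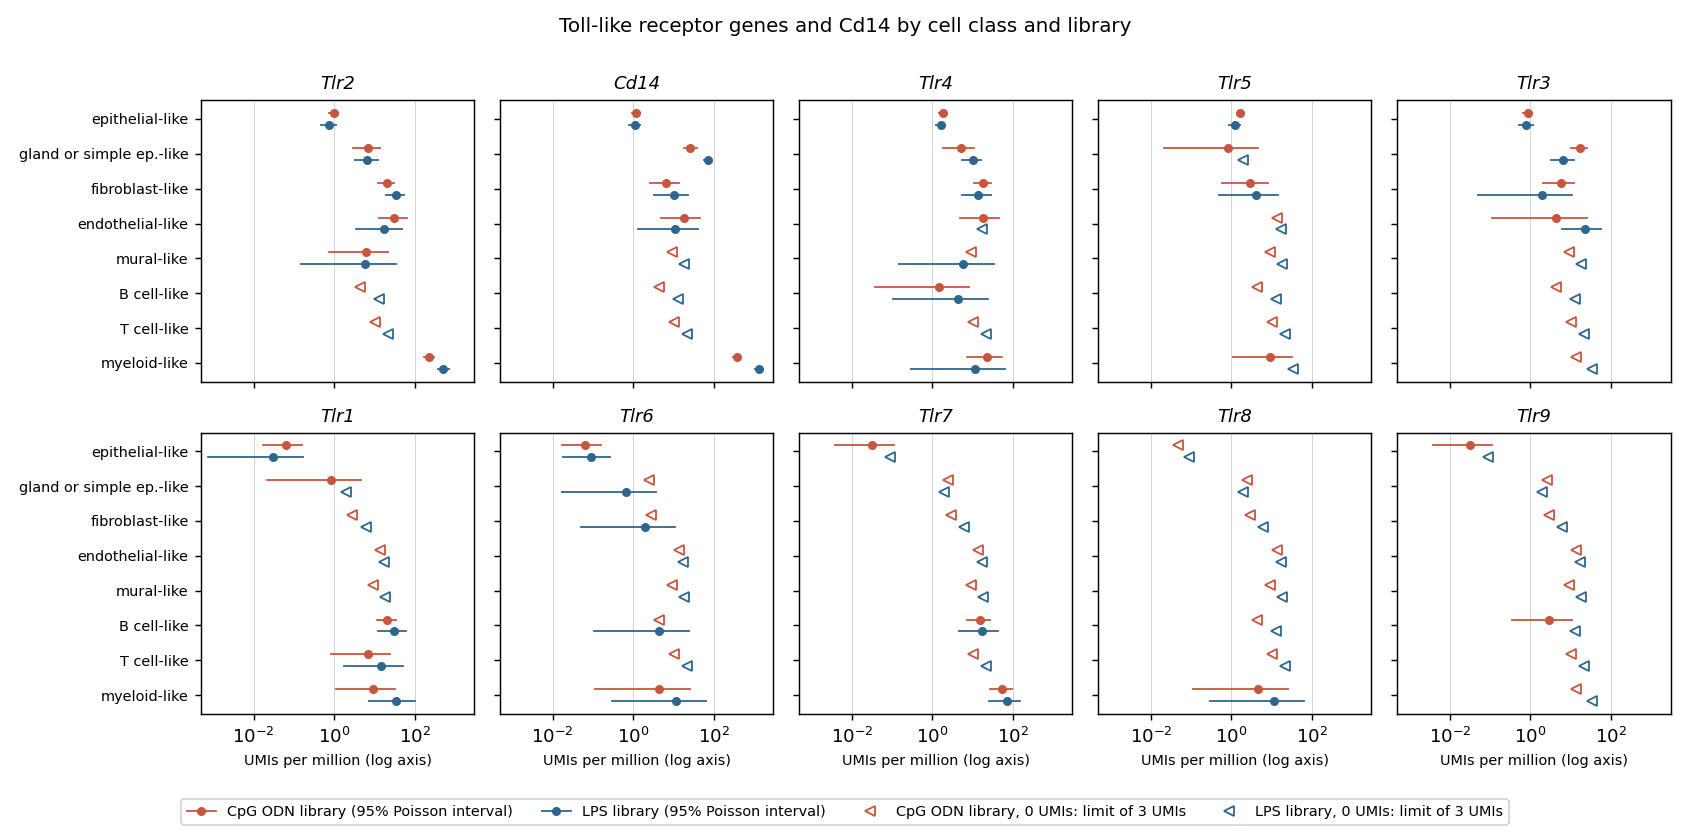
Level of each gene (CPM, log axis) in each cell class, with 1 point per library and exact 95% Poisson bars, and open symbols at the limit of 3 counts where no UMI was found. Tlr2 and Cd14 lie highest in myeloid-like cells, Tlr1 and Tlr7 lie high in B cell-like cells, and nearly all Tlr9 values are limits.

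All 10 genes were placed in GENCODE M21 (GRCm38) by the gene identifiers in the files. Tlr1 (chr5:64924679-64933563) and Tlr6 (chr5:64952031-64960097) lie 18467 bases apart on the same strand, and Tlr8 (chrX:167242696-167264329) and Tlr7 (chrX:167304929-167330558) lie 40599 bases apart on the same strand. Tlr2 lies at chr3:83836272-83841767, Tlr3 at chr8:45395665-45411080, Tlr4 at chr4:66827584-66930284, Tlr5 at chr1:182954788-182976044 and Tlr9 at chr9:106222598-106226883. No member overlapped an exon of another gene on its own strand, and Tlr3 overlapped an exon of Gm45542 on the other strand.

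The coding sequences of Tlr1 (2385 bases) and Tlr6 (2418 bases) had 454 stretches of 50 bases in common, 19.4% of those of Tlr1 and 19.2% of those of Tlr6. The longest identical run had 229 bases, from base 1468 to 1696 of the Tlr1 coding sequence and from 1507 to 1735 of that of Tlr6, and it is shown because reads from it cannot be told apart between these partner genes.
Tlr1 and Tlr6 shared run: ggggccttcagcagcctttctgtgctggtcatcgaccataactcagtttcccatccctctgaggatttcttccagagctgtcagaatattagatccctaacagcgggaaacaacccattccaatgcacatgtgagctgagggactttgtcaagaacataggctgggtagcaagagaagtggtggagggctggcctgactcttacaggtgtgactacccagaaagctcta
The last 1000 bases of the Tlr1 and Tlr6 transcripts, where most reads of a 3′ library fall, had 0 such stretches in common. Of the 50-base stretches at the end of Tlr1, however, 352 (26.6%) also occurred somewhere in 158 other genes, Tlr6 among them. Over whole Tlr1 transcripts 512 stretches were shared with any gene, and 454 coding stretches were shared with Tlr6. Most of the shared stretches at the end of Tlr1 were therefore shared with Tlr6, farther from the Tlr6 end. The shared run itself ends 858 bases before the end of the Tlr1 transcript, within this part, and 1797 bases before that of Tlr6. Of the 50-base stretches at the end of Tlr6, 0.148% occurred in 1 other gene. The counts of the 2 genes are uncertain to these extents.

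Tlr9, the receptor of the CpG ODN ligand, was nearly absent from both libraries. It had 6 UMIs in 6 of 4888 cells of the CpG ODN library and 0 in the 1277 LPS cells, a limit of 0.0807 CPM. The 6 cells were 2 B cell-like cells, 2 cells of the unnamed cluster led by Ighg2b and Jchain, and 2 basal epithelial-like cells. Both B cell-like cells held UMIs of Cd79a, a chain of the B cell receptor complex (9 and 8 UMIs), as did both cells of the unnamed cluster (12 and 18 UMIs). Of the 2 basal epithelial-like cells, with 151 and 60 UMIs of Krt5 (a basal keratin), 1 also held 3 Cd79a UMIs. B cell-like cells had a level of 2.97 CPM (0.359 to 10.7) in the CpG ODN library and a limit of 12.7 CPM in the LPS library. No cluster was named plasmacytoid dendritic cell-like. Of the markers of that cell type, Siglech had 4 UMIs in 3 cells and 1 UMI in 1 cell, and Ccr9, a chemokine receptor that T cells also carry, had 50 UMIs in 45 cells and 25 UMIs in 23 cells. No Tlr9 UMI was found in 237 and 55 fibroblast-like cells (limits 2.82 and 5.96 CPM), in 34 and 13 myeloid-like cells (limits 13.4 and 34.6 CPM) or in 83 and 26 T cell-like cells (limits 10.2 and 21.5 CPM). In myeloid-like, T cell-like, endothelial-like and mural-like cells of both libraries these limits stand above the 2.97 CPM of B cell-like cells. So does the limit of 5.96 CPM in fibroblast-like cells of the LPS library. A level of 2.97 CPM was therefore not detectable in these cells at this depth. In fibroblast-like cells of the CpG ODN library the limit of 2.82 CPM lies close to it.

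The promoters of Tlr9, Tlr2 and Tlr5 are shown because Tlr9 is the receptor of a ligand given here and the levels of the other two genes peaked in different cells, that of Tlr2 in myeloid-like cells and that of Tlr5, within the epithelium, in basal epithelial-like cells. RefSeq (GRCm38.p6) held a promoter for 7 of 9 members looked up, and the 250 bases before the start are printed 5′ to 3′ on the gene's strand, with matches to a PU.1-type motif (GAGGAAG) or an AP-1-type motif (TGANTCA) in capitals, both strands searched.
Tlr9, chr9:106222348-106222597, plus strand: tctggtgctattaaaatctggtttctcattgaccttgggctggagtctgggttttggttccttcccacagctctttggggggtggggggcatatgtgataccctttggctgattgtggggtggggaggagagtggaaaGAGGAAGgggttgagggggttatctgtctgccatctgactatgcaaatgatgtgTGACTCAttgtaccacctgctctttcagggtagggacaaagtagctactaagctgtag
Tlr2, chr3:83841609-83841858, minus strand: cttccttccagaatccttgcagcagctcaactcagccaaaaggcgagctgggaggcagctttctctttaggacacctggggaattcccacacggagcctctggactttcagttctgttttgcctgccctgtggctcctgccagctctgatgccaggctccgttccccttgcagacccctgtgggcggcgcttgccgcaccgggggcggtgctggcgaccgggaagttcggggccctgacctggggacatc
Tlr5, chr1:182954538-182954787, plus strand: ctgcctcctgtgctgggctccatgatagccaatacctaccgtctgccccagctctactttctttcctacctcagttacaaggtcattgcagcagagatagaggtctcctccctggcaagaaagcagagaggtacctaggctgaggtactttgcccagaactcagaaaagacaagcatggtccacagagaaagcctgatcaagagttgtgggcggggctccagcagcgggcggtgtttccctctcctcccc
The Tlr9 promoter held 1 match to each motif and 0 CG dinucleotides, that of Tlr2 held no match and 11 CG, and that of Tlr5 held no match and 4 CG. Of 32851 promoters of this length, 10.6% held the PU.1-type and 6.75% the AP-1-type motif, and the median number of CG was 6.

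Tlr2, the receptor of bacterial lipoproteins, was highest in myeloid-like cells. The CpG ODN library gave 51 UMIs in 21 of 34 such cells, a level of 227 CPM (169 to 299), and the LPS library gave 44 UMIs in 9 of 13 cells, a level of 508 CPM (369 to 682). Both levels were above those of every other class, and were 154-fold and 319-fold the level of all other cells of the library combined. Fibroblast-like cells had 19.7 CPM (12.2 to 30.2; 21 UMIs in 18 of 237 cells) and 33.8 CPM (19.7 to 54.1; 17 UMIs in 10 of 55 cells). Endothelial-like cells had 31.1 CPM (12.5 to 64.0) from 7 UMIs, above fibroblast-like cells, and 16.6 CPM (3.42 to 48.5) from 3 UMIs, below them, with overlapping intervals in both libraries. Gland- or simple-epithelial-like cells had 6.71 and 6.63 CPM from 8 and 10 UMIs, and mural-like cells had 2 and 1 UMIs. Epithelial-like cells were lowest among the classes with UMIs, with 0.967 CPM (0.741 to 1.24) and 0.735 CPM (0.476 to 1.09), yet through their number they held 62 of 155 and 25 of 103 Tlr2 UMIs. B cell-like and T cell-like cells had none, which for B cell-like cells allows a UMI in up to 1.06% and 4.35% of cells and sets no limit on how many expressed the gene. Their median depths of 2149 and 3157 UMIs compare with 5287.5 and 8283 UMIs in myeloid-like cells, and with every cell thinned to 1500 UMIs the share of myeloid-like cells with a Tlr2 UMI was 26.4% and 47.8%.

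Cd14, which lies at chr18:36725067-36726798, followed a like order with a second peak. Myeloid-like cells had 83 UMIs in 23 of 34 cells, 370 CPM (295 to 458), and 112 UMIs in 10 of 13 cells, 1293 CPM (1064 to 1555). Gland- or simple-epithelial-like cells came second, with 31 UMIs in 18 of 84 cells, 26.0 CPM (17.7 to 36.9), and 105 UMIs in 37 of 65 cells, 69.6 CPM (57.0 to 84.3). The class was made of a cluster led by Wfdc18, Reg3g and Ltf (secreted defence proteins among them) with 72 and 51 cells, which had 29.5 and 79.4 CPM, and a cluster led by Muc5b and Tff2, secreted products of mucous glands, with 12 and 14 cells, which had 14.4 and 40.1 CPM. Endothelial-like cells had 4 and 2 UMIs (17.8 and 11.1 CPM) and fibroblast-like cells 7 and 5 UMIs (6.58 and 9.93 CPM), with overlapping intervals. In the CpG ODN library the endothelial-like interval also overlapped that of gland- or simple-epithelial-like cells, so second place is not settled there. Epithelial-like cells had 1.15 and 1.09 CPM, and B cell-like, T cell-like and mural-like cells had 0 UMIs in both libraries. The cells of this class in the LPS library held 105 Cd14 beside 10 Tlr2 UMIs, where the myeloid-like cells held 112 beside 44. Of gland- or simple-epithelial-like cells 21.4% and 56.9% held a Cd14 UMI as counted, and 4.04% and 11.7% after thinning to 1500 UMIs, while no B cell-like cell held one with or without thinning.

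Tlr4, the LPS receptor, was spread more widely. Fibroblast-like cells had 17.9 CPM (10.8 to 27.9) from 19 UMIs in 17 of 237 cells and 13.9 CPM (5.59 to 28.7) from 7 UMIs in 7 of 55 cells, which was 9.0-fold and 6.98-fold the level of all other cells. Myeloid-like cells had 22.3 CPM from 5 UMIs and 11.5 CPM from 1 UMI, endothelial-like cells 17.8 CPM from 4 UMIs and none (limit 16.6 CPM), and gland- or simple-epithelial-like cells 5.03 CPM from 6 UMIs and 9.95 CPM from 15 UMIs. The intervals of these classes overlapped, so no order among them could be given. Epithelial-like cells were at 1.81 CPM (1.49 to 2.17) and 1.62 CPM (1.22 to 2.10), and held 116 and 55 UMIs, 73.9% and 68.8% of all Tlr4 UMIs in the kept cells. T cell-like cells had none (limits 10.2 and 21.5 CPM).

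Tlr1, a partner of TLR2, had most of its UMIs in cells with B cell genes. B cell-like cells had 20.8 CPM (11.3 to 34.8) from 14 UMIs in 14 of 283 cells and 29.6 CPM (11.9 to 60.9) from 7 UMIs in 7 of 69 cells. The unnamed cluster led by Ighg2b and Jchain had 18 UMIs, 9.06 CPM (5.37 to 14.3), in the CpG ODN library and none in its 4 cells of the LPS library. Myeloid-like cells had 8.91 CPM (1.08 to 32.2) from 2 UMIs and 34.6 CPM (7.14 to 101) from 3 UMIs, the latter above the level of B cell-like cells with overlapping intervals. T cell-like cells had 6.79 and 14.3 CPM from 2 and 2 UMIs, and epithelial-like cells 4 and 1 UMIs. Tlr6, the other partner of TLR2, had 13 and 7 UMIs in all, 8 of the 13 in the unnamed cluster, 1 and 1 in myeloid-like cells and 4 and 3 in epithelial-like cells.

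Tlr5, the flagellin receptor, was the member most concentrated in the epithelium. Epithelial-like cells held 107 and 42 UMIs, 93.9% and 93.3% of all Tlr5 UMIs, at 1.67 CPM (1.37 to 2.02) and 1.23 CPM (0.890 to 1.67). These cells also held most UMIs of each library, and their Tlr5 level was 1.53-fold (0.719 to 3.90) and 1.29-fold (0.413 to 6.52) that of all other cells, with both intervals including 1. B cell-like, T cell-like, endothelial-like and mural-like cells had 0 UMIs, and fibroblast-like cells 3 and 2.

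Within the epithelium Tlr5 was graded by layer. Tlr5 gave 60 and 21 UMIs in the 1246 and 346 basal epithelial-like cells, which is 4.92 CPM (3.75 to 6.33) and 3.02 CPM (1.87 to 4.62). The 583 and 222 upper epithelial-like cells gave 6 and 3 UMIs, or 0.313 CPM (0.115 to 0.681) and 0.226 CPM (0.0466 to 0.660). The basal level was 15.7-fold (6.81 to 44.5) and 13.4-fold (4.00 to 70.1) the upper level. The epithelial-like cells of neither layer stood between, at 1.11 and 1.14 CPM, and dividing cells were at 2.38 and 1.65 CPM from 9 and 3 UMIs. Tlr3 was also higher in basal (1.64 and 1.30 CPM) than in upper epithelial-like cells (0.261 and 0.226 CPM), 6.28-fold and 5.73-fold. In dividing cells it had 2.65 and 1.10 CPM from 10 and 2 UMIs, above basal cells in the CpG ODN library. The 17 and 17 junctional epithelial-like cells held 0 and 2 UMIs of Tlr3 and the same of Tlr5. For each gene this was 3.40 CPM in the LPS library, above basal cells but from few counts. Of the 5 members with enough UMIs to compare, 3 (Tlr3, Tlr5 and Cd14) were at least 2 times higher in basal than in upper epithelial-like cells in both libraries, against 31.1% of all 12076 genes compared. None was 2 times higher in upper cells in both. No share of all genes is given for that direction, so nothing is read from it. The layers were defined by markers and clusters from the same cells, and upper epithelial-like cells were deeper (medians of 32303 and 56754 UMIs, against 9422 and 18740.5 UMIs in basal cells).

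**Figure D2:**
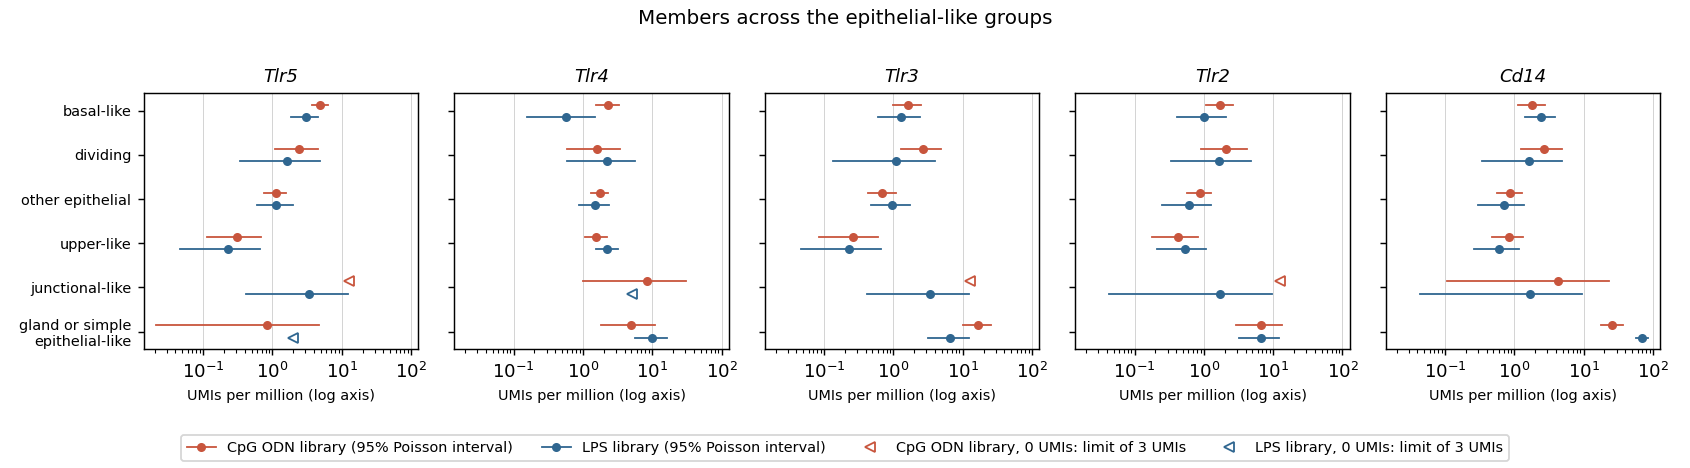
Levels (CPM, log axis) of Tlr2, Tlr3, Tlr4, Tlr5 and Cd14 in the epithelial-like groups, with 1 point per library, exact 95% Poisson bars and open symbols at the limit of 3 counts. Tlr5 falls from 4.92 and 3.02 CPM in basal to 0.313 and 0.226 CPM in upper cells, and Tlr4 has no such fall.

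Tlr4 did not share this gradient. Upper epithelial-like cells had 30 UMIs in each library, at 1.57 CPM (1.06 to 2.23) and 2.26 CPM (1.52 to 3.22), and basal epithelial-like cells had 28 UMIs, 2.29 CPM (1.52 to 3.32), in the CpG ODN and 4 UMIs, 0.576 CPM (0.157 to 1.47), in the LPS library. A cluster led by Lor (loricrin, of the cornified envelope) had 2.45 and 5.17 CPM from 8 and 14 UMIs. In basal epithelial-like cells the level was 3.98-fold (1.39 to 15.6) higher in the CpG ODN library, and of 18 ratios by layer this was the only interval that left out 1. Of the 28 UMIs in the CpG ODN library, 17 lay in 1 cluster (led by Igfbp3, Wnt10a and Prxl2a), which had none in the LPS library.

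Tlr3, the receptor of double-stranded RNA, was found in gland- or simple-epithelial-like cells with 20 UMIs in 11 of 84 cells, 16.8 CPM (10.2 to 25.9), and 10 UMIs in 8 of 65 cells, 6.63 CPM (3.18 to 12.2). Endothelial-like cells had 4.44 CPM (0.112 to 24.7) from 1 UMI and, in the LPS library, a higher level of 22.1 CPM (6.03 to 56.7) from 4 UMIs. These intervals overlapped those of gland- or simple-epithelial-like cells, so neither class could be placed first. Fibroblast-like cells had 6 and 1 UMIs. Epithelial-like cells had 0.858 and 0.794 CPM from 55 and 27 UMIs. Myeloid-like cells had none (limits 13.4 and 34.6 CPM), nor had B cell-like, T cell-like and mural-like cells.

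Tlr7, a receptor of single-stranded RNA, was found in myeloid-like and B cell-like cells. Myeloid-like cells had 53.5 CPM (27.6 to 93.4) from 12 UMIs in 10 of 34 cells and 69.2 CPM (25.4 to 151) from 6 UMIs in 5 of 13 cells. B cell-like cells had 14.8 CPM (7.11 to 27.3) from 10 UMIs and 16.9 CPM (4.60 to 43.2) from 4 UMIs. Epithelial-like cells had 2 and 0 UMIs and fibroblast-like cells 0 and 0. Tlr8, its neighbour on the X chromosome, had 1 UMI in each library, both in myeloid-like cells.

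Set against all other cells of the same library, 5 of the 7 members with enough UMIs (Tlr1, Tlr2, Tlr4, Tlr7 and Cd14) were at least 2 times higher in myeloid-like cells in both libraries, where 13.2% of 14769 genes were. In gland- or simple-epithelial-like cells 4 of 7 were (Tlr2, Tlr3, Tlr4 and Cd14; 13.4% of genes), in fibroblast-like cells 2 of 7 (Tlr2 and Tlr4; 23.3%), in endothelial-like cells 2 of 7 (Tlr2 and Tlr3; 18.9%), in B cell-like cells 2 of 7 (Tlr1 and Tlr7; 15.4%) and in epithelial-like cells 0 of 7 (6.30%). In T cell-like cells 1 of 7 was, Tlr1 from 2 and 2 UMIs. No share of all genes is given for that class, so nothing is read from it. In myeloid-like cells the counts behind Tlr1 (2 and 3 UMIs) and Tlr4 (5 and 1) were small, as were those behind both genes in endothelial-like cells. The clusters were formed from the same cells, so these folds describe the classes and are no test of them.

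Few cells held UMIs of every part of a receptor. Tlr9 was found together with Unc93b1, which carries it to the endosome, and Myd88 in 1 cell of the CpG ODN library, the basal epithelial-like cell that also held 3 Cd79a UMIs, and in 0 cells of the LPS library. Unc93b1 and Myd88 themselves were found together in 88 and 68 cells. Tlr4 together with Ly96 and Cd14 was found in 2 and 2 cells. Tlr4 with Ly96 was found in 35 and 23 cells, of which 29 and 21 were epithelial-like. Epithelial-like cells were 76.7% of the kept cells of each library, and 0.773% and 2.14% of them held this pair. The shares of gland- or simple-epithelial-like cells were higher, 2.38% and 3.08%, from 2 and 2 cells. Tlr2 together with Tlr1 or Tlr6 was found in 2 and 3 cells, all of them myeloid-like. Tlr2 and Cd14 shared 22 and 15 cells, 13 of them myeloid-like in the CpG ODN library (38.2% of 34, 22.2 to 56.4%) and 8 in the LPS library (61.5% of 13, 31.6 to 86.1%). These counts rest on single UMIs and differ in depth between libraries, so no order between the libraries was read from them.

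Between libraries, 18 member and class pairs had at least 10 UMIs and a UMI in each library, and the interval of 4 of them left out 1. Cd14 was 3.50-fold higher in the LPS library in myeloid-like cells (ratio of CpG ODN to LPS 0.286, 0.213 to 0.383) and 2.68-fold higher in gland- or simple-epithelial-like cells (0.373, 0.242 to 0.562). Tlr2 was 2.24-fold higher in the LPS library in myeloid-like cells (0.447, 0.293 to 0.686). Tlr3 was 2.53-fold (1.13 to 6.05) higher in the CpG ODN library in gland- or simple-epithelial-like cells. Of its 20 UMIs there in the CpG ODN library, 25% lay in 1 cell and 45% in 3 cells. Among all genes with enough UMIs, 11.8% of 1474 in myeloid-like cells were at least 2 times higher in the CpG ODN and 11.4% in the LPS library, and 4.73% and 4.80% of 7525 in gland- or simple-epithelial-like cells.

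**Figure D3:**
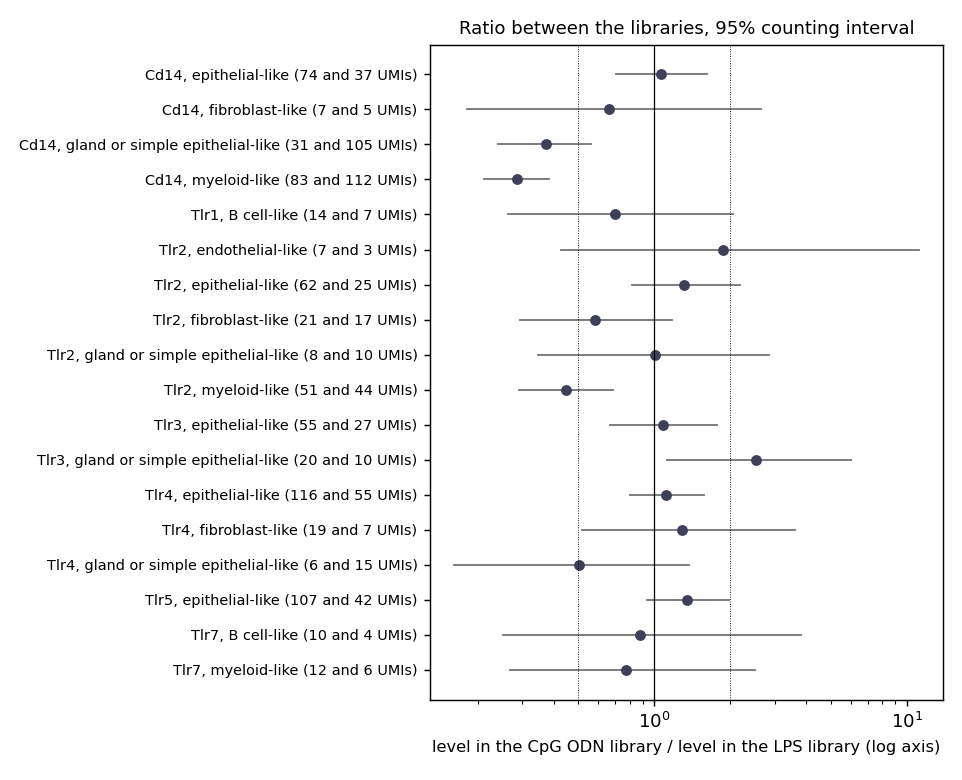
Ratio of the level in the CpG ODN library to that in the LPS library (log axis) for the 18 member and class pairs with at least 10 UMIs, with exact conditional binomial 95% bars. Cd14 in myeloid-like cells (0.286) and gland- or simple-epithelial-like cells (0.373) lies farthest below 1, and most bars include 1.

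The other 14 intervals included 1. Tlr5 in epithelial-like cells had a ratio of 1.35 (0.937 to 1.98), Tlr4 1.12 (0.805 to 1.57) and Tlr2 1.32, and Tlr2 in fibroblast-like cells had 0.585 (0.294 to 1.18). In B cell-like cells Tlr1 had 0.702 (0.265 to 2.06) and Tlr7 0.878 (0.253 to 3.83), and Tlr7 in myeloid-like cells had 0.772 (0.268 to 2.51). Differences of 2 times or more remained within several of these intervals.

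The makeup of the myeloid-like class differed between the libraries. A sub-cluster led by S100a8 and S100a9, abundant neutrophil genes, had 9 and 9 cells, 26.5% and 69.2% of the class. It stayed unnamed, since S100a8 was found in only 1 and 5 of its cells, and the cells without it, 8 and 4, held a median of 69 and 160 UMIs of Lyz2, the lysozyme gene of myeloid cells. A macrophage- or monocyte-like sub-cluster had 14 and 2 cells, and an unnamed sub-cluster led by Mt4 and Krt13 had 11 and 2 cells. The best match of the latter was Langerhans or dendritic cells, with 4 of the listed markers met (Cd207, Itgax, Flt3 and Ccl22), but keratin genes stood among its leading genes. It held 17 and 1 Tlr2 UMIs and 11 and 0 Cd14 UMIs. The sub-cluster led by S100a8 and S100a9 had Tlr2 at 349 CPM (207 to 551, 18 UMIs) and 919 CPM (665 to 1238, 43 UMIs), a ratio of 0.380 (0.206 to 0.672). It had Cd14 at 969 CPM (719 to 1278, 50 UMIs) and 2330 CPM (1913 to 2811, 109 UMIs), a ratio of 0.416 (0.291 to 0.586). Its cells without S100a8 held 17 of the 18 and 37 of the 43 Tlr2 UMIs, and 50 of the 50 and 65 of the 109 Cd14 UMIs, which were 345 and 1090.0 CPM of Tlr2 and 1014 and 1915 CPM of Cd14. Of the CpG ODN library, the macrophage- or monocyte-like cells held Tlr2 at 274 CPM (16 UMIs) and Cd14 at 377 CPM (22 UMIs). The 2 such cells of the LPS library had 0 and 3 UMIs. Here the direction was the other way, with a Cd14 ratio of 2.395 (0.72 to 12.5). The Tlr2 ratio had no LPS UMI to divide by, and its interval began at 1.26. The sub-cluster led by Mt4 and Krt13 had a Tlr2 ratio of 3.09 (0.484 to 129) and a Cd14 interval from 0.456. Only the sub-cluster led by S100a8 and S100a9 therefore showed higher levels in the LPS library. The LPS values of the other sub-clusters rest on 2 cells each. In the LPS library 1 cell, without S100a8, held 52 of the 112 Cd14 UMIs (46.4%) and 17 of the 44 Tlr2 UMIs (38.6%). Without the cell with the most UMIs of the gene in each library, the myeloid-like level of Cd14 was 288 and 779 CPM and that of Tlr2 in the LPS library 350.4 CPM, with ratios of 0.370 for Cd14 and 0.557 for Tlr2.

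**Figure D4:**
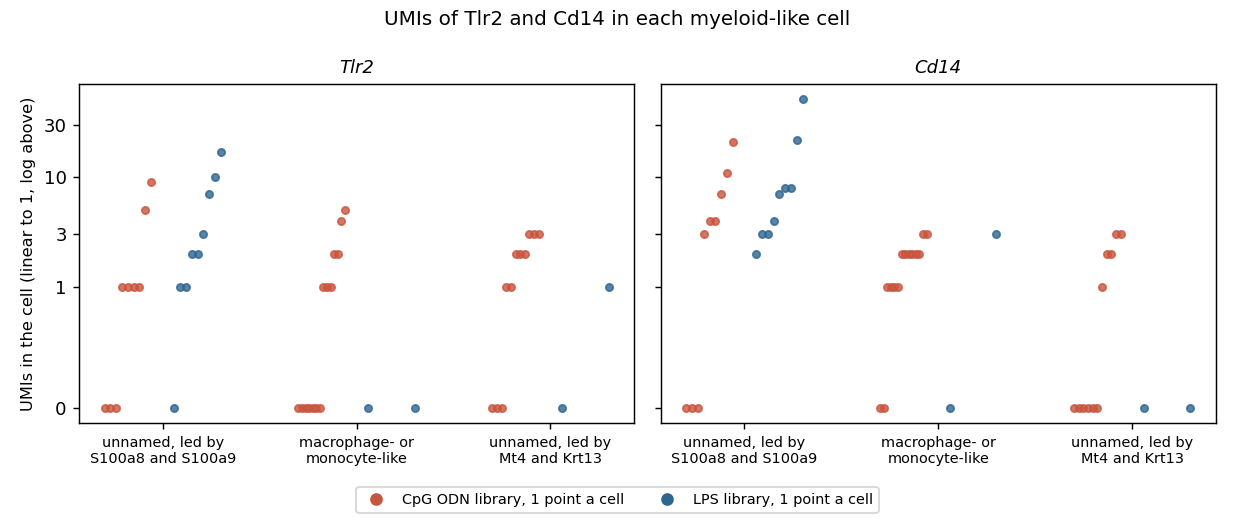
Tlr2 and Cd14 UMIs of each myeloid-like cell (axis linear up to 1 UMI and logarithmic above), by library and sub-cluster. In the LPS library the sub-cluster led by S100a8 and S100a9 holds 43 of 44 Tlr2 and 109 of 112 Cd14 UMIs, and 1 of its cells holds 52 Cd14 and 17 Tlr2 UMIs.

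When cells were instead assigned one by one from signature genes, both myeloid ratios turned, to 1.97 for Tlr2 and 1.14 for Cd14. That class had 48 and 30 cells, of which 32 and 11 belonged to the myeloid-like cluster. Its other 16 and 19 cells, 8 and 15 of them in epithelial-like or gland- or simple-epithelial-like clusters, brought 46.9% and 88.8% of its UMIs.

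The study described a fibroblast cluster with Col14a1, which encodes a fibril-associated collagen, in libraries not analysed here, and the fibroblast-like cells were split by a Col14a1 UMI for that reason. Cells with one were deeper, with medians of 4425 against 3899.5 UMIs and 9376 against 7177 UMIs. Tlr2 had 28.1 CPM (13 UMIs) in 101 cells with and 13.3 CPM (8 UMIs) in 136 cells without Col14a1 in the CpG ODN library, a ratio of 2.10 (0.809 to 5.86). In the LPS library it had 31.0 CPM (11 UMIs) in 34 and 40.4 CPM (6 UMIs) in 21 cells, a ratio of 0.769 (0.261 to 2.53). Tlr4 had a ratio of 0.755 (0.252 to 2.08) in the CpG ODN library, and its 7 UMIs of the LPS library all lay in cells with Col14a1. With cells thinned to 1500 UMIs before the split the ratios were 1.55 and 3.24 for Tlr2, the latter turned in direction and from 3 UMIs, and for Tlr4 in the CpG ODN library 0 of 7 UMIs lay in cells with Col14a1. No direction was read from this split. Tlr9 had no UMI in any of the 4 sets of cells.

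The partners of these receptors came from a list of 41 genes of the pathway, all in the files. Ly96, the LPS-binding partner of TLR4, had 812 and 407 UMIs in epithelial-like cells, 12.7 and 12.0 CPM. Its level was highest in endothelial-like cells of the CpG ODN library and in myeloid-like cells of the LPS library. Within the myeloid-like class, macrophage- or monocyte-like cells had 120 and 105 CPM of Ly96 from 7 and 2 UMIs. Unc93b1 was at 254 and 215 CPM in B cell-like and 307 and 335 CPM in myeloid-like cells, against 1.73 and 2.38 CPM in epithelial-like cells. Lbp, the LPS-binding protein of serum, was highest in endothelial-like cells (200 and 166 CPM). Cd180 and Ly86, which form a receptor complex related to that of TLR4, were highest in B cell-like cells in both libraries.

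Counts here, of listed genes and of all genes, use the fold of 2 alone. Few genes of the list differed by 2 times between libraries, and the intervals of those that did left out 1. In epithelial-like cells 1 of 32 did, Tnfaip3, an inhibitor of NF-κB, at 15.05 and 31.0 CPM, where 1.24% of 13113 genes were higher in the CpG ODN and 2.68% in the LPS library. The median log2 ratio of CpG ODN to LPS was -0.05 over the list and -0.02 over all genes compared there. In gland- or simple-epithelial-like cells 3 of 25 did: Irf7, a transcription factor of interferon genes, at 41.1 and 15.9 CPM, Lbp at 14.3 and 43.1 CPM, and Cd36, a scavenger receptor and partner of TLR2, with 0 UMIs (limit 2.52 CPM) and 47 UMIs, 31.2 CPM. Of all 7525 genes compared there, 4.73% were higher in the CpG ODN and 4.80% in the LPS library. The median log2 ratios there were 0.04 over the list and 0.10 over all genes. In fibroblast-like cells 0 of 15 differed (3.33% and 2.66% of 6306 genes). In B cell-like cells 1 of 15 did, the NF-κB inhibitor Nfkbia at 294 and 600 CPM (4.82% and 1.71% of 3447 genes), and in endothelial-like cells 1 of 6, Cd36 at 129 and 697 CPM (3.93% and 3.13% of 2239 genes). In myeloid-like cells 1 of 11 did, Rela, a subunit of NF-κB, at 84.6 and 196 CPM (11.8% and 11.4% of 1474 genes), and in T cell-like cells 0 of 7 (6.87% and 3.04% of 1776 genes).

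Over the 29 class and library values, the genes whose level ran most like that of a member were Hacd4 for Tlr2 (Pearson r = 0.922), with Ifi207 (0.908) and Retnlg (0.907), and Grk3 for Cd14 (0.971), with Pf4 (0.944) and Ccl9 (0.943). For Tlr1 they were AB124611 (0.970), Cxcr4 (0.965) and Ms4a4c (0.956). For Tlr4 they were Arsa (0.857), Lrmda (0.791) and Hexa (0.784), for Tlr5 Kcnn1 (0.847), 6030443J06Rik (0.842) and Nme4 (0.803), and for Tlr3 Ly6g6d (0.792), Mcf2l (0.775) and Cthrc1 (0.774). The points are classes of the same 2 libraries and differ in depth, so these are descriptions over 29 values and not over independent samples.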

How the data were processed

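Single-cell RNA libraries of mouse palatal gingiva were analysed as the raw UMI counts per gene and barcode that the authors deposited, 1 matrix for each ligand, made with Cell Ranger 4.0.0 per the file headers. The genome build is not given in the sources used here. The reads themselves and the study's other experiments were not analysed here. The members and gene lists were chosen with earlier results of these data known, and the rule that names clusters was set after the data were seen.

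Barcodes with at least 800 detected genes were kept. Each cell's counts were brought to a sum of 10000 and logged, and 30 principal components of the 2000 most variable genes over both libraries were clustered with 15 neighbours and Leiden resolution 1 (scikit-learn 1.9.0, leidenalg 0.10.2, igraph 0.11.9; Python 3.11.15, scipy 1.17.1). A cluster was called X-like for the class with the highest marker score. At least 3 of the listed markers of that class, and at least 50% of them, had to be met. A marker was met when it was found in at least 20% of the cells. Its level also had to reach 2 times that in coarse clusters low for the class. No other class could lead the 10 leading genes. These rules left 2 of 28 clusters unnamed. A myeloid-like sub-cluster stayed unnamed where under 50% of its cells held its first gene. Doublets were kept, since Scrublet (scanpy 1.11.5) marked 20 of 6165 cells (0.324%), too few to have worked. UMIs were summed per class and library. All members and listed pathway genes could be named, and for each member with at least 50 UMIs the 3 genes with the highest correlation of log2(CPM + 10). Genes with at least 30 UMIs were compared between classes and libraries, with a fold of 2. Each interval has a confidence of 95% and a count of 0 is given as a limit of 3 counts, and both cover counting error only. PCR copies were removed by the UMIs. No test was made, with 1 library per ligand, and the interval code was checked on simulated data. The alternatives were other gene minimums (200 and 1200), resolutions (0.5 and 2), clustering of each library alone, assignment by signature genes, doublets left out, thinning to 1500 or 3000 UMIs, means over cells, the cell with the most UMIs left out, folds of 1.5 and a minimum of 100 UMIs.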

Additional observations from a re-analysis of the deposited data

Results flagged for a closer look

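Barcodes with fewer than 800 detected genes, which no comparison uses, held UMIs of several members above the limit of 3 counts. The 1331 such barcodes of the CpG ODN library held 13 Tlr1, 8 Tlr2, 5 Tlr4, 4 Tlr7 and 17 Cd14 UMIs, and the 739 of the LPS library held 5 Tlr2 and 19 Cd14 UMIs. The 13 Tlr1 UMIs lay in 12 barcodes, and all 12 held at least 3 B cell markers, as did all 4 barcodes with a Tlr7 UMI; 479 of the 1331 barcodes held as many B cell markers, against 7 of 739 in the LPS library. The 17 Cd14 UMIs of the CpG ODN library lay in 3 barcodes, all with at least 3 myeloid markers and 1 of them with 10 UMIs. In the LPS library the 19 Cd14 UMIs lay in 4 barcodes, 2 of them with at least 3 myeloid markers and 1 with 12 UMIs, and 3 of the 4 barcodes with a Tlr2 UMI held at least 3 myeloid markers. Hemoglobin genes held at least as many UMIs as all other genes together in 474 and 604 of these barcodes, which held 0 UMIs of any member.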

How the results depend on the processing

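No paired analysis was possible because both ligands had only 1 pooled library. Of the levels recomputed under the alternatives 280 moved by less than their interval and 27 by more, and of the ratios between libraries 205 and 7, with 2 reversed. Assignment by signature genes reversed the myeloid ratios of Tlr2 (1.97) and Cd14 (1.14) and gave Tlr1 in B cells 10.4 CPM, Tlr4 in fibroblasts 10.2 CPM, Tlr2 in myeloid cells 131 and 66.5 CPM and Cd14 in myeloid cells 232 and 204 CPM (CpG ODN first; single values are of the CpG ODN library). With at least 1200 genes Tlr1 in B cell-like cells fell to 8.37 CPM. Without the keratin-led sub-cluster, an alternative chosen after seeing the data, the myeloid levels were 309 CPM for Tlr2, 100.1 CPM for Tlr7 and 655 and 1701 CPM for Cd14, and the Cd14 ratio was 0.385. Without the cell with the most UMIs of the gene, myeloid Tlr2 was 350.4 CPM in the LPS library and Cd14 288 and 779 CPM. Means over cells gave 90.4 CPM for Cd14 in gland- or simple-epithelial-like and 1822 CPM in myeloid-like cells of the LPS library. The cause of these moves was not tested, beyond the makeup of the signature class given above. With a fold of 1.5 the pathway genes higher in the CpG ODN library numbered 1 of 15 in B cell-like, 4 of 15 in fibroblast-like, 2 of 25 in gland- or simple-epithelial-like and 1 of 11 in myeloid-like cells (13.4%, 11.3%, 15.8% and 22.2% of all genes there), and those higher in the LPS library 1 of 7 in T cell-like, 1 of 15 in fibroblast-like, 3 of 25 in gland- or simple-epithelial-like and 4 of 11 in myeloid-like cells (13.5%, 8.96%, 11.9% and 23.5%). With at least 100 UMIs the counts were 0 and 0 in gland- or simple-epithelial-like cells and 0 for the LPS library in myeloid-like cells, with fewer genes compared. Clustered alone, the CpG ODN library had no gland- or simple-epithelial-like and the LPS library no myeloid-like cluster, so those values were not obtained. Thinning to 1500 UMIs moved 29 of 31 shares. Depth limits Tlr6, Tlr8 and Tlr9 to counts, and myeloid-like values rest on 34 and 13 cells.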

Other observations

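Tlr13, a receptor of bacterial ribosomal RNA that humans lack, was highest in myeloid-like cells in both libraries, with 8 and 11 UMIs. Of the 2 further Tlr9 UMIs in barcodes under 800 genes of the CpG ODN library, 1 lay in a barcode with 8 UMIs of Cd79a and 694 detected genes.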
